A study of Mus musculus with 15 samples.

Results

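The genes described here encode the Gq coupling machinery of the cardiomyocyte and the RGS proteins that act on it: Gnaq, Gna11, Plcb1, Plcb3, Prkca, Rgs2, Rgs3, Rgs4, Rgs5 and Rgs10. They were chosen by symbol rather than by their values, though with earlier results of these data known. All 10 were found among the 14337 genes listed. Testing was limited to the 12848 genes whose log2 RPKM averaged 0 or more across the libraries, and all 10 are among them. RPKM scales the reads of a gene by its transcript length and by the size of the library.

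RNA-Seq was carried out on primary cardiomyocytes from hearts of wild-type C57/BL6 pups, 1 to 3 days old. After 5 days in culture they spent 24 h in low serum (0.5% FBS), and treatment ran from day 6 to harvest at day 8. The study asked how low-dose cilengitide (ldCil) acts on cells made to enlarge by angiotensin II (AngII). Control cells received saline (3 libraries, S1 to S3). AngII was given alone at 1 µM (4 libraries, S5 to S8), cilengitide alone at 20 nM (ldCil; 4 libraries, S9 to S12), or both together (AngII + ldCil; 4 libraries, S13 to S16). Cilengitide is a cyclic peptide that binds αv integrins. All 4 groups went through the same culture and serum starvation. Whether the libraries of a group came from separate cultures is stated neither in the labels nor in the study's methods, so the p-values speak only of differences among libraries, and that spread may be technical. The values carry no read counts, and the depth behind each is unknown.

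AngII acts on cardiomyocytes through the AT1 receptor, which passes the signal to Gαq and Gα11. These switch on phospholipase C β, which splits a membrane lipid into inositol trisphosphate, a releaser of stored calcium, and diacylglycerol, an activator of protein kinase C. RGS proteins end the signal by speeding the hydrolysis of GTP on the α subunit. In the heart this route is known for its part in hypertrophic growth, and RGS2, RGS4 and RGS5 are known as brakes on it in muscle and vessel wall cells.

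The sequences upstream of Rgs2, Rgs4 and Rgs5 are shown because these 3 genes varied more between libraries than the other members, and that of Gnaq because it varied least. Each is the 150 bases that end just before the start site given by RefSeq on GRCm38.p6, written 5′ to 3′ on the strand of the gene. Rgs2 lies on the minus strand at chr1:144004150-144004299, Rgs4 on the minus strand at chr1:169747643-169747792, Rgs5 on the plus strand at chr1:169655351-169655500 and Gnaq on the plus strand at chr19:16132534-16132683. Capitals mark the CCAAT box, the TATA box letters TATAAA and the GC box letters GGGCGG on either strand. On the other strand the CCAAT box reads ATTGG and the GC box reads CCGCCC.
Rgs2: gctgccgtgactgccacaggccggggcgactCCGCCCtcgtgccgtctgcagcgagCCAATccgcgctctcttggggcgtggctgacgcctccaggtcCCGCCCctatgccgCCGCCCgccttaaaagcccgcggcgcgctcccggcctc
Rgs4: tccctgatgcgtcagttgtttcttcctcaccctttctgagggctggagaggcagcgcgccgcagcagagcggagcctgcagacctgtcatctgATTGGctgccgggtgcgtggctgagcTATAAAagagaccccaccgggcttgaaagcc
Rgs5: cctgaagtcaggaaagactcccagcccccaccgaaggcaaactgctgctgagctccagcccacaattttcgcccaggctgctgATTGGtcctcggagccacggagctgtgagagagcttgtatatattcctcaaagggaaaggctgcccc
Gnaq: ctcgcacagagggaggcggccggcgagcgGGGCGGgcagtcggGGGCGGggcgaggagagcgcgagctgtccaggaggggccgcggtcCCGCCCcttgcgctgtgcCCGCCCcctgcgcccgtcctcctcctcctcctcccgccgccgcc

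CCAAT stood in the windows of 3 of the 10 members, Rgs2, Rgs4 and Rgs5, and in 24.5% of all 32851 such windows. TATAAA stood in those of Rgs3 and Rgs4, against 7.57% of all windows, and GGGCGG in those of 8 members, Rgs4 and Rgs5 being without it, against 28.6%. Members are counted as genes and the shares are of windows, and a gene can have several windows. For Rgs3, TATAAA and GGGCGG stood in different windows, and the window with GGGCGG lay wholly within annotated exons. Counted back from the start site, CCAAT began 94 bases upstream of Rgs2, 57 upstream of Rgs4 and 67 upstream of Rgs5, and TATAAA began 31 bases upstream of Rgs4. None of these matches overlapped another. G and C made up 81.3% of the Gnaq window, 74.7% of that of Rgs2, 60.7% of that of Rgs4 and 57.3% of that of Rgs5, against a median of 54.0% over all windows. The motifs were chosen after the sequences had been seen, and a match is a description of the letters.

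The genes lie on 7 chromosomes of GRCm38, and each is protein coding in GENCODE M21. Rgs2 is a compact gene on the minus strand at chr1:143999338-144004161. Rgs4, on the minus strand at chr1:169741477-169747642, and Rgs5, on the plus strand at chr1:169655501-169695813, are near each other on the same chromosome. Gnaq lies at chr19:16132831-16387463, Plcb3 at chr19:6952325-6976470, Gna11 at chr10:81528724-81545190, Plcb1 at chr2:134786067-135475258, Prkca at chr11:107933387-108343928, Rgs3 at chr4:62559847-62704001 and Rgs10 at chr7:128373621-128418758. Of the 50-base words in the transcripts of Rgs3, 11.4% are also found in those of the gene Gm5763, so reads of Rgs3 could have been counted elsewhere or left out. For the other 9 members this share was at most 0.464%, and Gnaq and Gna11 shared no such word with each other. Exons of a gene on the opposite strand cover 1.6% of the exon bases of Plcb1, and less of Plcb3 and Prkca.

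In log2 RPKM, Gna11 was the highest member, at a mean of 5.58 ± 0.148 (SD, n = 15), followed by Gnaq at 5.25 ± 0.132, Prkca at 5.21 ± 0.276 and Plcb3 at 4.74 ± 0.261. The RGS genes stood lower, with Rgs3 at 3.24 ± 0.355, Rgs2 at 2.87 ± 0.646, Rgs5 at 2.08 ± 0.68 and Rgs4 at 1.96 ± 0.599. Plcb1 was at 1.48 ± 0.367 and Rgs10 was the lowest, at 0.79 ± 0.328. These are levels per transcript length. As geometric means of RPKM they run from 47.8 for Gna11 to 1.72 for Rgs10. The order of neighbours held in each of the 15 libraries for Gna11 over Gnaq, Prkca over Plcb3, and Plcb3 over Rgs3. It held in 14 for Rgs2 over Rgs5, in 13 for Rgs4 over Plcb1 and Plcb1 over Rgs10, and in 11 for Rgs3 over Rgs2. Gnaq exceeded Prkca in 10 libraries and Rgs5 exceeded Rgs4 in 8, so the neighbours of these pairs did not differ beyond their spread.

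The 2 Gα subunits hardly varied, while 3 of the RGS genes varied widely. Of the 12848 genes tested, 6.06% had a smaller SD over the libraries than Gnaq and 9.62% a smaller one than Gna11. The corresponding percentages were 88.2 for Rgs4, 90.1 for Rgs2 and 91.3 for Rgs5, and the median SD of all genes tested was 0.292. For the lower Plcb1 and Rgs10 they were 65.8 and 58.3. The spread was not compared at matched level. The 4 treatment groups accounted for 11.7% of the variance of Rgs2, 9.35% of that of Rgs5 and 4.95% of that of Rgs4, below the median of 18.3% over all genes tested. They accounted for 46.6% of the variance of Plcb1 and 34.7% of that of Rgs10, the highest among the members.

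**Figure D1:**
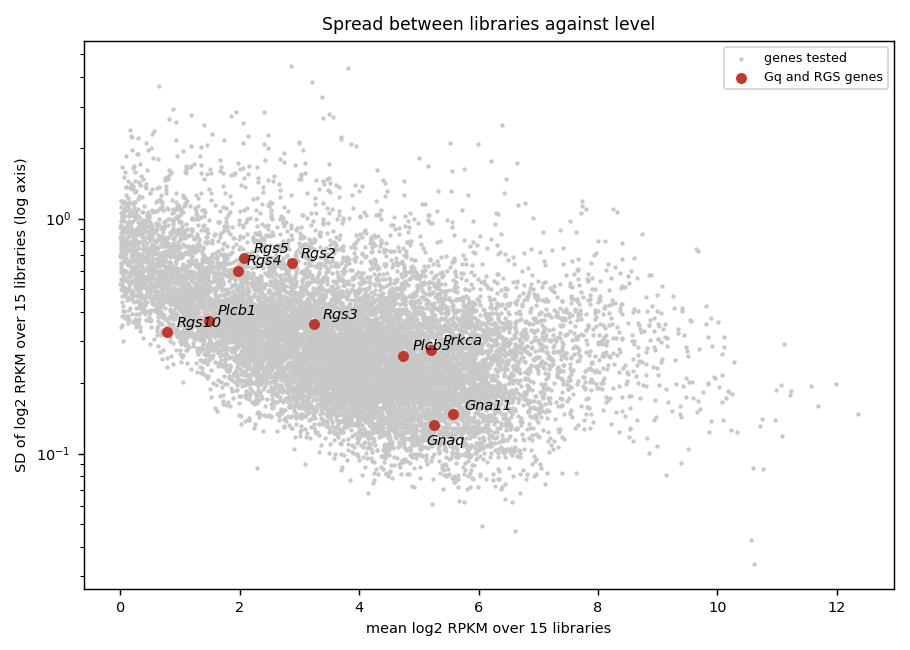
The SD of log2 RPKM over the 15 libraries (log axis) is plotted against the mean log2 RPKM, with a grey point for each gene tested and a red point for each of the 10 Gq and RGS genes. Rgs2, Rgs4 and Rgs5 have the largest SDs of the 10, 0.646, 0.599 and 0.68, and Gnaq and Gna11 the smallest, 0.132 and 0.148.

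The libraries fell into states that cut across the treatments, and this touches each comparison. The value of a list in a library is the average over its genes of log2 RPKM minus that gene's 15-library mean. A list of 20 interferon response genes had a mean between 2.08 and 2.64 in S1, S3, S5, S9 and S10, of 0.33 in S2, and between −1.85 and −0.39 in the other 9 libraries. None of the AngII + ldCil libraries was among the high ones. All 11 cardiomyocyte markers were well above the filter, and their list means stayed between −0.22 and 0.24. That mean pools markers of which some moved widely. Myl4 ran from 6.37 in S3 and S9 to 8.86 in S15, and Ttn from 7.78 in S5 to 10.53 in S16. Markers of other cells were also present in these cultures: all 8 fibroblast markers, all 8 endothelial markers, 10 of 12 pericyte and smooth muscle markers and 9 of 10 macrophage and leukocyte markers were listed. The macrophage list was highest in S5 (1.14) and lowest in S16 (−1.31), and S16 also had the lowest fibroblast list (−1.47). In RNA from a whole culture, fewer cells of a type and less RNA per cell cannot be told apart.

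No member passed the test in any comparison, and neither did any other gene. With limma fitted to all 15 libraries and Benjamini-Hochberg adjustment over the 12848 genes, 0% were called at an adjusted p under 0.05 in each of the 6 contrasts, which were the 4 comparisons of groups described below, the AngII effect averaged over both ldCil levels and the AngII by ldCil interaction. At an unadjusted p under 0.05 the members gave 1 call, Plcb1, lower with ldCil against control. In that comparison 1.95% of all genes tested were past that level, 0.49% in the lower direction. The share was 6.04% for AngII against control, 5.62% for AngII + ldCil against control, 2.58% for AngII + ldCil against AngII, 7.64% for the averaged AngII effect and 3.86% for the interaction. Exact 2-sided permutation tests of each member in the 4 comparisons of groups, 40 in all, gave 0 with p under 0.05, the smallest p these group sizes allow being 0.0286.

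**Figure D2:**
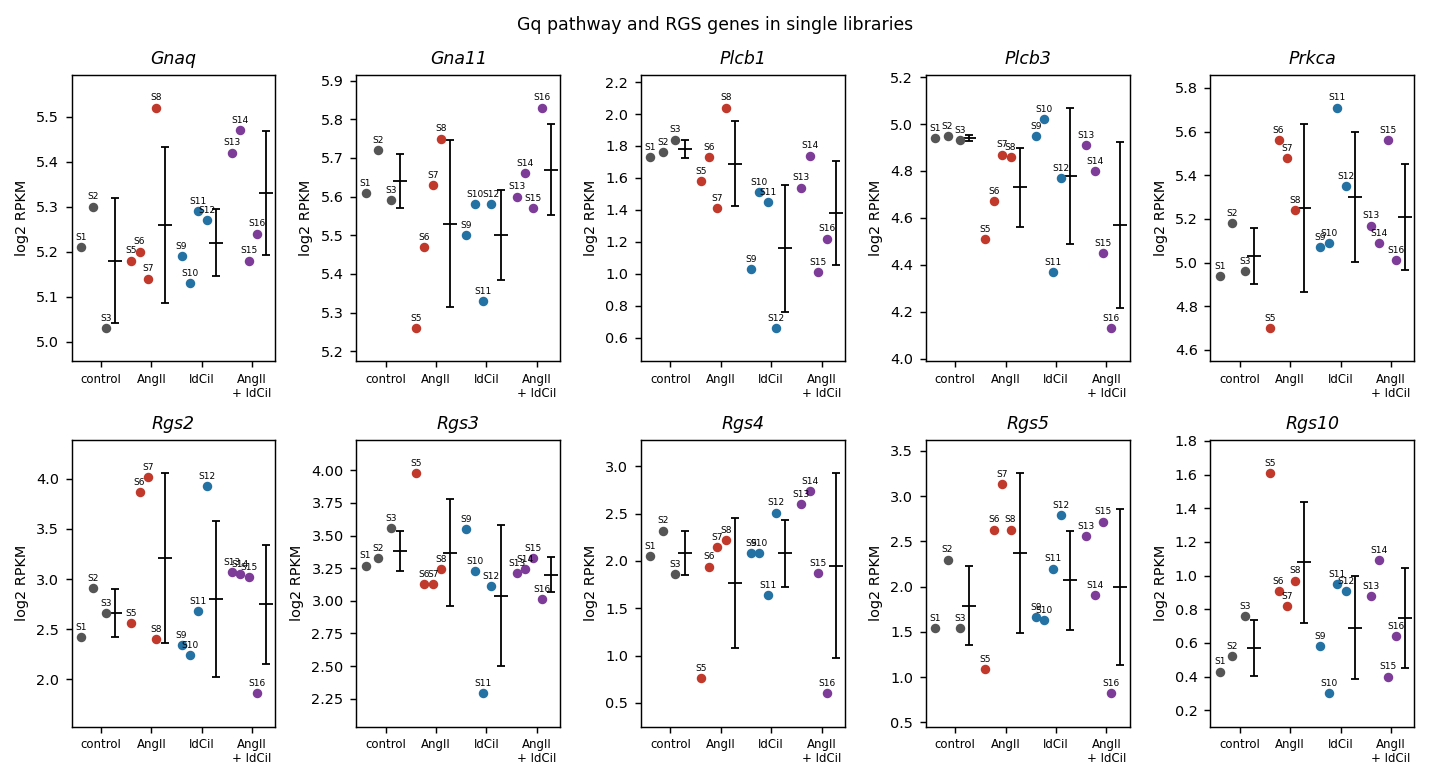
Each panel plots the log2 RPKM of 1 gene, with a point for each library, named by its label and coloured by treatment, and beside the points the mean and SD of the group (n = 3 for control and 4 for the others). The vertical axes differ between panels. The points of S5 and S16 lie far from those of their groups for Rgs4, at 0.76 and 0.60.

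The Gα subunits gave similar levels under each treatment. Gnaq, which encodes Gαq, had a log2 RPKM of 5.21, 5.30 and 5.03 in control and of 5.18, 5.20, 5.14 and 5.52 in AngII-stimulated cardiomyocytes. It was at 5.19, 5.13, 5.29 and 5.27 with ldCil, and at 5.42, 5.47, 5.18 and 5.24 with AngII + ldCil. The groups overlapped, with S8 above the rest of the AngII group. For AngII against control its log2 fold change was 0.08 (95% CI −0.17 to 0.34; limma adjusted p = 0.902), a narrow interval beside those of the RGS genes.

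Gna11, which encodes the closely related Gα11, was at 5.61, 5.72 and 5.59 in control and at 5.26, 5.47, 5.63 and 5.75 with AngII. It was at 5.50, 5.58, 5.33 and 5.58 with ldCil and at 5.60, 5.66, 5.57 and 5.83 with AngII + ldCil. All 4 ldCil libraries were below all 3 control libraries, by as little as 0.01 log2 units at the nearest values. With ldCil the log2 fold change against control was −0.14 (SE 0.123, limma adjusted p = 0.966), and −0.09 without S11, and 6.87% of the genes tested also had groups that did not overlap in this comparison. For AngII against control it was −0.11 (95% CI −0.38 to 0.15; limma adjusted p = 0.865), but −0.02 without S5, −0.07 without S2 and −0.19 without S8. The interaction was 0.28 (SE 0.168, limma adjusted p = 0.958). The difference Gna11 minus Gnaq was above 0 in every library, from 0.04 in S11 to 0.59 in S16.

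Plcb1 encodes the phospholipase C β isoform whose splice form PLCβ1b is known as an effector of Gαq in cardiomyocytes. It was at 1.73, 1.76 and 1.84 in control, which is the tightest group, and at 1.03, 1.51, 1.45 and 0.66 with ldCil. All ldCil libraries were below all control libraries. Its log2 fold change was −0.61 (SE 0.253, 95% CI −1.15 to −0.07), a fold of 0.654, with an unadjusted limma p of 0.0293 and an adjusted p of 0.966. The exact permutation test of the same difference gave p = 0.0857, and leaving out single libraries gave log2 fold changes from −0.73 to −0.44. With the 5 high-interferon libraries left out, which leaves 1 control library, the log2 fold change was −0.70.

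The other comparisons of Plcb1 were less marked. It was at 1.58, 1.73, 1.41 and 2.04 with AngII, around the control values, and at 1.54, 1.74, 1.01 and 1.22 with AngII + ldCil, which overlapped both. The log2 fold change was −0.09 (95% CI −0.63 to 0.45) for AngII against control, −0.40 (−0.94 to 0.14) for AngII + ldCil against control and −0.31 (−0.81 to 0.19) for AngII + ldCil against AngII. The limma adjusted p-values were 0.954, 0.849 and 1. Without S7 the first was 0.006 and without S8 −0.20, and the last was −0.19 without either S8 or S15.

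Plcb3, a more widely expressed isoform of the same enzyme, was far higher than Plcb1. Its control values were 4.94, 4.95 and 4.93, within 0.02 log2 units of each other. AngII libraries were at 4.51, 4.67, 4.87 and 4.86, and AngII + ldCil libraries at 4.91, 4.80, 4.45 and 4.13. Both of these groups lay below control without overlap, while the ldCil values, 4.95, 5.02, 4.37 and 4.77, spread on either side of it. Against control, the log2 fold change was −0.21 (SE 0.188, limma adjusted p = 0.823) for AngII and −0.37 (SE 0.188, limma adjusted p = 0.849) for AngII + ldCil. Exact permutation p-values were 0.0857 and 0.171. These comparisons share their control libraries, and leaving out S16, the lowest library, gave −0.22 for the second, while leaving out S5 gave −0.14 for the first. Over both ldCil levels the AngII effect on Plcb3 was −0.21 (SE 0.128, limma adjusted p = 0.746), and −0.14 without S16.

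Prkca encodes protein kinase Cα, a major conventional protein kinase C of the heart, activated by diacylglycerol and calcium. Its log2 RPKM was 4.94, 5.18 and 4.96 in control and 4.70, 5.56, 5.48 and 5.24 with AngII. It was 5.07, 5.09, 5.71 and 5.35 with ldCil and 5.17, 5.09, 5.56 and 5.01 with AngII + ldCil. The AngII group held values on both sides of control, S5 being the lowest of all libraries. The log2 fold change for AngII against control was 0.22 (95% CI −0.22 to 0.67; limma adjusted p = 0.833), and 0.40 without S5, 0.12 without S6 and 0.14 without S7. The 5 libraries with the highest interferon list had Prkca between 4.70 and 5.09 and the other 10 had it between 5.01 and 5.71, and with that list as a covariate the log2 fold change was −0.10. The part of the interferon state in this result was not tested beyond that fit.

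**Figure D3:**
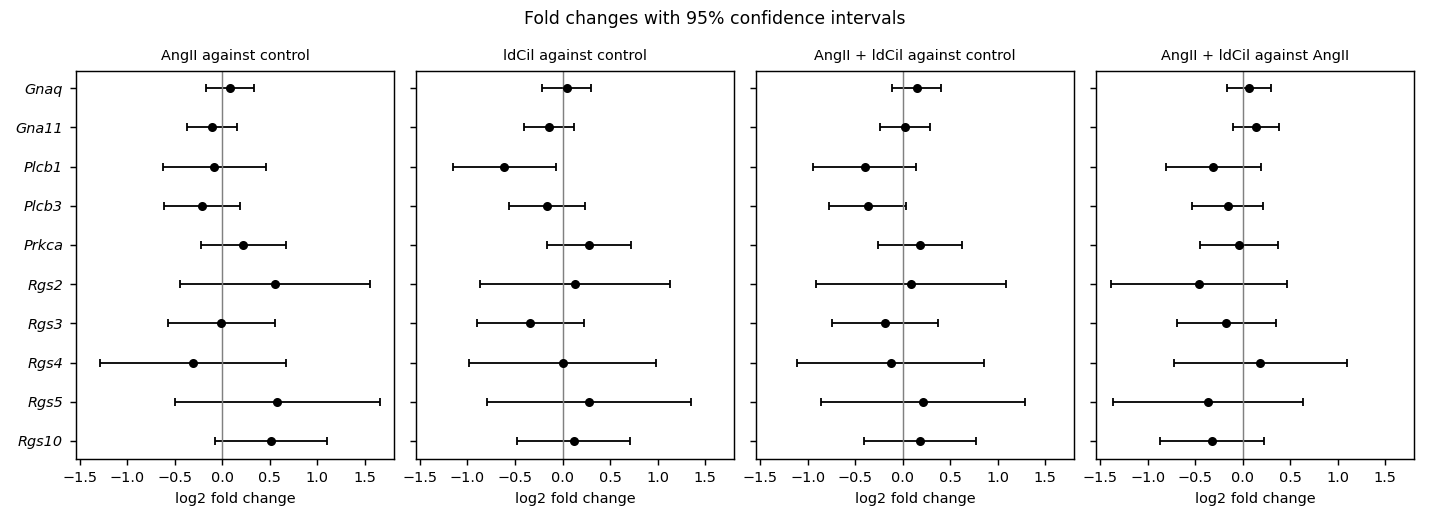
The log2 fold change of each gene (point) with its 95% confidence interval (bar) from the limma fit is plotted in 1 panel per comparison, with a line at 0. The interval of Plcb1 for ldCil against control, −1.15 to −0.07, is the single one that does not cross 0, and the intervals of Rgs2, Rgs4 and Rgs5 are the widest.

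Rgs2, which encodes an RGS protein that prefers Gαq, was at 2.42, 2.91 and 2.66 in control. The AngII libraries split into S6 and S7, at 3.87 and 4.02, and S5 and S8, at 2.56 and 2.40. With ldCil the values were 2.34, 2.24, 2.68 and 3.93, and with AngII + ldCil 3.07, 3.05, 3.02 and 1.86. High and low libraries thus stood together in the AngII group and in the ldCil group. In the combination S16 alone was at the lower end, and no library reached the level of S6, S7 or S12. The log2 fold change was 0.55 (95% CI −0.45 to 1.55; limma adjusted p = 0.819) for AngII against control and −0.46 (−1.39 to 0.46; limma adjusted p = 1) for AngII + ldCil against AngII. The first was 0.33 without S6, 0.28 without S7 and at most 0.82 with any other single library left out. The second was −0.17 without S16, −0.25 without S6, −0.20 without S7 and −0.74 without S8.

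Rgs5 encodes an RGS protein abundant in pericytes. Its log2 RPKM was 1.54, 2.30 and 1.54 in control and 1.09, 2.63, 3.13 and 2.63 with AngII. It was 1.66, 1.63, 2.20 and 2.79 with ldCil and 2.56, 1.91, 2.72 and 0.82 with AngII + ldCil. Of the AngII libraries, 3 lay above all control libraries and S5 lay below them. AngII against control gave a log2 fold change of 0.58 (95% CI −0.50 to 1.65; limma adjusted p = 0.823). It was 1.01 without S5, at which the adjusted p was still 0.384, 0.32 without S7, and −0.02 with the interferon list as a covariate. For AngII + ldCil against AngII it was −0.36 (−1.36 to 0.63; limma adjusted p = 1), and 0.03 without S16, so that its direction depended on 1 library. It was −0.79 without S5, −0.11 without S7, −0.55 without S13 and −0.60 without S15. The interaction, −0.64 (SE 0.686, limma adjusted p = 0.958), moved to −0.25 without S16, −1.07 without S5, −0.39 without S7 and −0.40 without S12.

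With S16 set aside, Rgs5 was the member with the clearest split beside the interferon state. The share of all genes tested that split in this way was not counted, so the split is not shown to be particular to Rgs5. It was between 1.09 and 1.66 in S1, S3, S5, S9 and S10, where that list was high, at 0.82 in S16, and between 1.91 and 3.13 in the other 9 libraries. The list of pericyte and smooth muscle markers was between −0.31 and 0.31 in all libraries, with S5 lowest and S8 highest. That mean pools unlike markers, of which Pdgfrb and Notch3 were picked after their values were seen. Pdgfrb was between 5.32 and 5.59 in the 5 high-interferon libraries, at 5.20 in S16 and between 5.76 and 6.17 in the other 9. Notch3 was between 3.36 and 4.08 in those 5 and between 4.41 and 5.55 in the rest. The other markers of the list overlapped between the 2 sets of libraries, and they did not lean the same way. Tagln, Mcam and Myh11 leaned as Pdgfrb and Notch3 did, and Cnn1 and Des leaned the other way. Cnn1 was between 4.74 and 5.06 in the 5 high-interferon libraries and lower in the others except S2 (4.97) and S8 (6.06). Des was between 10.18 and 10.41 in those 5 and lower in the others except S2 (10.21), S8 (10.45) and S11 (10.34). Rgs2 was between 2.24 and 2.66 in the 5 high-interferon libraries, with other libraries on both sides of that range. The part of the interferon state or of other cells in the values of Rgs2 and Rgs5 was not tested beyond the fits given here.

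Rgs4, which encodes an RGS protein acting on Gαi and Gαq, was at 2.05, 2.32 and 1.86 in control. It was at 0.76, 1.94, 2.15 and 2.22 with AngII, at 2.08, 2.08, 1.64 and 2.51 with ldCil and at 2.60, 2.74, 1.87 and 0.60 with AngII + ldCil. S5 and S16 lay more than 0.8 log2 units below the other 13 libraries, and the other AngII libraries overlapped control. AngII against control gave a log2 fold change of −0.31 (95% CI −1.29 to 0.67; limma adjusted p = 0.902), and 0.02 without S5. For AngII + ldCil against AngII it was 0.19 (−0.72 to 1.09; limma adjusted p = 1), −0.15 without S5, −0.03 without S13, −0.08 without S14 and 0.64 without S16.

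Rgs10, which encodes a small RGS protein that acts on Gαi and is abundant in immune cells, was the lowest member. Its log2 RPKM was 0.43, 0.52 and 0.76 in control and 1.61, 0.91, 0.82 and 0.97 in AngII-stimulated cardiomyocytes. It was 0.58, 0.30, 0.95 and 0.91 with ldCil and 0.88, 1.09, 0.40 and 0.64 with AngII + ldCil. All 4 AngII libraries were above all 3 control libraries, and the other groups overlapped control. The log2 fold change for AngII against control was 0.51 (SE 0.276, 95% CI −0.08 to 1.10), a fold of 1.42, with a limma adjusted p of 0.782 and an exact permutation p of 0.0571. Without S5 it was 0.33. S5 had both the highest Rgs10 and the highest macrophage list, whose range was 0.07 to 0.28 in control and −0.46 to 1.14 with AngII. In S6 and S7 the list was below every control library and Rgs10 was above them. That mean pools markers that did not move together. Adgre1 was at 0.78 in S6 and 1.13 in S7, below its lowest control value of 3.1. Csf1r, Cd68 and Fcgr1 were also below every control library there. C1qa, at 2.43 and 2.57, lay between control values of 1.11 and 3.18. C1qb and Ctss were also within their control ranges, and Lyz2 and Ptprc were mixed. The part of macrophages in the values of Rgs10 was not tested. The averaged AngII effect was 0.29 (SE 0.188, limma adjusted p = 0.766), and the log2 fold change for AngII + ldCil against AngII was −0.33 (95% CI −0.87 to 0.22; limma adjusted p = 1), −0.15 without S5 and −0.21 without S15.

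Plcb3 and Rgs10 were thus the 2 members of 10 whose AngII and control libraries did not overlap, which 8.74% of all genes tested also showed. For ldCil against control they were Gna11 and Plcb1, beside 6.87%, and for AngII + ldCil against control Plcb3 alone, beside 13.5%. No member had groups that did not overlap for AngII + ldCil against AngII, beside 1.55%.

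Rgs3, which encodes an RGS protein with long and short forms that act on Gαi and Gαq, was the highest of the 5 RGS genes. It was at 3.27, 3.33 and 3.56 in control and at 3.98, 3.13, 3.13 and 3.24 with AngII. It was at 3.55, 3.23, 2.29 and 3.11 with ldCil and at 3.21, 3.24, 3.33 and 3.01 with AngII + ldCil. S5 was the highest and S11 the lowest of all libraries, and the rest lay close together. AngII against control gave a log2 fold change of −0.01 (95% CI −0.57 to 0.55).

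**Figure D4:**
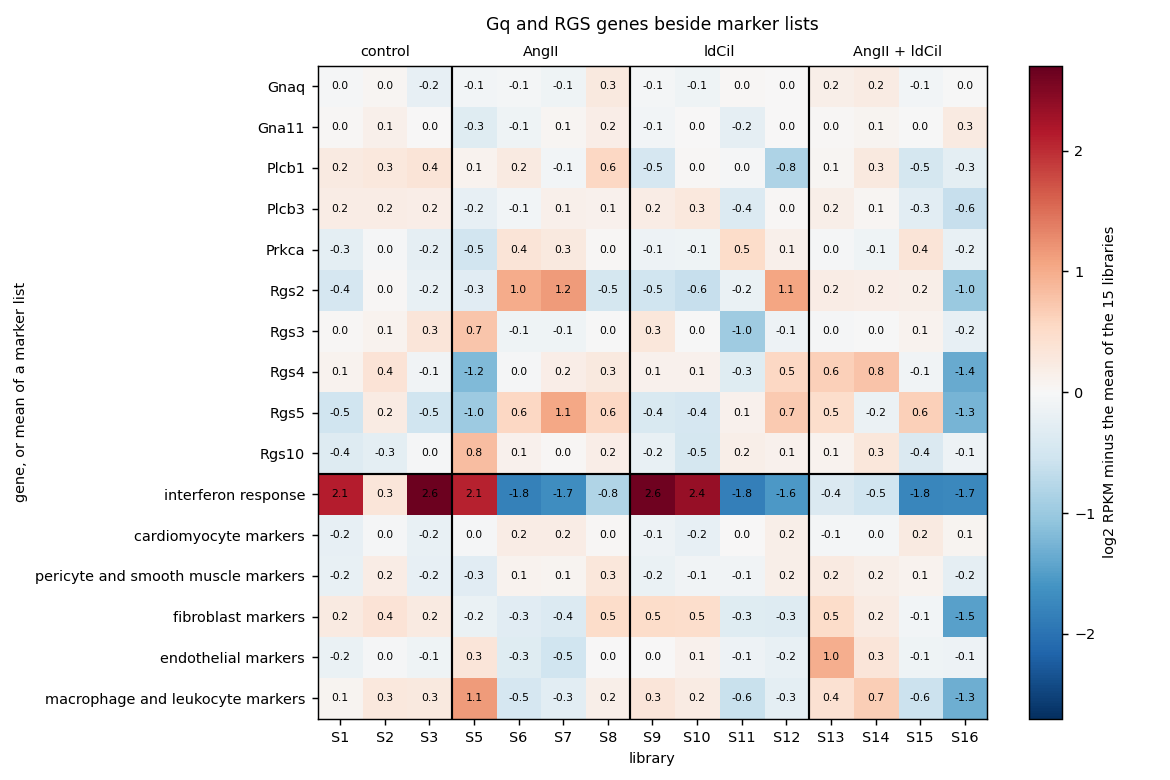
Each cell gives the log2 RPKM of a gene (upper 10 lines) or the mean of a marker list (lower 6 lines) in 1 library, minus the mean of the 15 libraries, with red above and blue below 0. The interferon list is at 2.08 or more in S1, S3, S5, S9 and S10, and S16 has the lowest fibroblast list (−1.47) together with the lowest Rgs2, Rgs4, Rgs5 and Plcb3.

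The likeness of the members across the 15 libraries is given here as a description of values that share libraries and treatments. Most pairs were only weakly related. Pearson's r was 0.79 between Rgs2 and Rgs5, 0.77 between Prkca and Rgs5, 0.73 between Plcb3 and Rgs4, and 0.65 between Rgs4 and Rgs5. Prkca and Rgs3 ran in opposite directions (r = −0.72), with S5 and S11 at opposite ends of both genes. S16 was the lowest library for Plcb3, Rgs2, Rgs4 and Rgs5. How far these values of r rest on such libraries was not tested. Gnaq and Gna11 had an r of 0.31, and Rgs10 had its strongest r, −0.48, with Gna11. The strongest r of Plcb1 with another member was 0.31, and that of Gnaq was 0.39. The genes most like each member over the same 15 libraries were Acss1 for Rgs2 (r = 0.933), Ptgfrn for Rgs5 (0.954), Atrnl1 for Rgs4 (0.932), S100a13 for Rgs10 (0.888) and Svbp for Rgs3 (0.939). They were Pan2 for Prkca (0.974), Ncstn for Plcb3 (0.917), Zbtb4 for Gna11 (0.927), Bmp4 for Gnaq (0.876) and 4930523C07Rik for Plcb1 (0.751). Csrp2, a LIM protein of smooth muscle, came next for Rgs2 (0.929), and Kdelr1, a receptor that returns proteins to the endoplasmic reticulum, for Rgs4 (0.895).

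Other genes of the route were taken from 11 lists with 135 genes, from receptors to calcineurin, of which 108 were listed and 96 tested. For AngII against control, 4 of the 96 were higher and 3 lower at an unadjusted p under 0.05, 7 in all, beside 6.04% of all genes tested. None passed adjustment in limma. Their median log2 fold change was 0.05, against 0.02 over all genes tested. For the averaged AngII effect the counts were 4 higher and 6 lower, beside 7.64%, and for AngII + ldCil against AngII 1 and 0, beside 2.58%.

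Among the Gq-coupled receptors, 2 of 17 tested were higher and 2 lower with AngII at an unadjusted p under 0.05. Agtr1a, which encodes the AT1a receptor, was low, at 0.88, 1.24 and 1.24 in control and at 1.27, 1.64, 1.57 and 1.12 with AngII, and the 2 groups overlapped. Adra1b, the α1B-adrenergic receptor, was at 3.05, 3.12 and 2.60 in control and at 3.95, 4.28, 4.15 and 3.31 with AngII. The 2 groups of Adra1b did not overlap, beside 8.74% of all genes tested, and its log2 fold change was 1.00 (SE 0.439, limma adjusted p = 0.782). Ptgfr, low at a mean log2 RPKM of 0.17, was the other higher gene, at 2.11 (SE 0.908, limma adjusted p = 0.782). It was at −1.29, −1.59 and −1.06 in control and at −1.23, 2.41, 2.25 and −0.26 with AngII, and the groups overlapped. Against control the log2 fold change of Ptgfr was also 1.76 (SE 0.908) with ldCil and 1.70 (SE 0.908) with AngII + ldCil. The difference was thus not particular to AngII. Htr2a was 1 of the lower genes, at −1.10 (SE 0.499, limma adjusted p = 0.782). Htr2a was between 3.15 and 3.66 in the 5 libraries with the highest interferon list and between 1.31 and 2.77 in the other 10. The part of the interferon state in the values of Htr2a was not tested. F2r, the thrombin receptor, was the highest of the list at a mean log2 RPKM of 6.75.

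Rgs16 was the highest of the 7 other RGS genes tested, at a mean log2 RPKM of 4.57, above each of the 5 RGS members. It was at 5.56, 4.27 and 5.94 in control, at 5.15, 4.40, 3.87 and 3.50 with AngII, at 6.08, 5.97, 4.66 and 3.71 with ldCil and at 4.28, 4.14, 3.65 and 3.42 with AngII + ldCil. The 5 libraries with the highest interferon list were the 5 with the highest Rgs16, and the share of all genes tested with such a split was not counted. The averaged AngII effect was −1.13 (SE 0.376, limma adjusted p = 0.648), and the part of the interferon state in it was not tested.

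Downstream, Ppp3ca, the catalytic Aα subunit of calcineurin, was at 5.41, 5.43 and 5.25 in control and at 5.89, 5.64, 5.74 and 5.73 with AngII. The groups did not overlap, which 8.74% of all genes tested also showed, and the log2 fold change was 0.39 (SE 0.102, limma adjusted p = 0.782). The libraries with ldCil, at 5.50 to 5.72, and with AngII + ldCil, at 5.53 to 5.76, also lay above every control library. Their log2 fold changes against control were 0.247 (SE 0.102) and 0.25 (SE 0.102), so the difference was not particular to AngII. Nfatc2, a transcription factor that calcineurin activates, had a log2 fold change of 0.53 (SE 0.195, limma adjusted p = 0.782). These were the 2 genes of the 16 in the calcineurin list that were higher at an unadjusted p under 0.05, and 1 was lower. That was Nfatc4, a related factor singled out after its values were seen, at 2.88, 2.44 and 2.76 in control and at 2.44, 1.26, 0.86 and 2.06 with AngII. Its log2 fold change, −1.04, was the largest of the list in size. Nfatc4 was between 2.44 and 2.88 in the 5 libraries with the highest interferon list and between 0.86 and 2.44 in the other 10. How many of all genes tested split in this way was not counted. The part of the interferon state in this result was not tested. The remaining lists, of G protein subunits, other phospholipases C, protein kinases C and D, diacylglycerol kinases, inositol trisphosphate receptors, receptor kinases and RhoGEFs, had 0 genes at an unadjusted p under 0.05 for AngII against control.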

How the data were processed

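Poly(A)-captured RNA of 15 libraries was sequenced. The submitters' processing notes name HISAT2, HTSeq and the GRCm38 (mm10) build. The sources used here do not give tool versions, annotation release or strandedness. For 14337 genes the deposited table gives log2 RPKM, which the authors made by conditional quantile normalisation, an adjustment for length and GC content. The 75th percentile was 4.93 in every library. Without read counts, depth and counting error are unknown. Another 8 unnamed columns held leftover annotation text and no sample values.

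Gene identifiers were matched to GENCODE M21 (14329 of 14337). Limma 3.58.1 in R 4.3.3 fitted 1 mean per group to the 12848 genes averaging 0 log2 RPKM or more, with empirical Bayes moderation with a trend and 2-sided p-values adjusted by the Benjamini-Hochberg method. No pseudocount was added. Exact permutation tests went over every assignment of the libraries compared. The fit was tested on simulated data in which each gene varied independently of the others. That test therefore cannot show how the fit handles the states that these libraries share. Genes outside the 10 were named if they had the highest means or smallest AngII p-values of their list. Agtr1a was named after its values were seen. The members and lists were chosen with earlier results of these data known. Start sites and sequences are from RefSeq (GRCm38.p6). Alternatives were other filters, a pseudocount of 0.1 or 1, median centring of libraries, quantile normalisation, other moderation, library weights (arrayWeights), only the groups compared, the interferon list as a covariate, S1, S3, S5, S9 and S10 left out, and each library left out.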

Additional observations from a re-analysis of the deposited data

Results flagged for a closer look

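Of 30 groups of 4 libraries (the 10 genes in the 3 treated groups), 3 held a library whose gap to its nearest neighbour was a large part of the group's range, above Dixon's 95% limit for 4 values. Chance gives this in about 1 in 20 groups. Gnaq in S8 was at 5.52 log2 RPKM, with the other AngII libraries at 5.14 to 5.20, a gap of 0.831 of the range. Rgs3 in S5 was at 3.98, with the other AngII libraries at 3.13 to 3.24, a gap of 0.864 of the range. Rgs2 in S16 was at 1.86, with the other AngII + ldCil libraries at 3.02 to 3.07, a gap of 0.958 of the range.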

How the results depend on the processing

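The number of members at an adjusted p under 0.05 was 0 in all 6 contrasts under every alternative but library weights. Those gave 3 members for AngII against control, 1 for AngII + ldCil against control, 4 for AngII + ldCil against AngII, 5 for the averaged AngII effect and 1 for the interaction, and left 0 for ldCil against control. Of all genes tested they called 48.6%, 18%, 31.5%, 41.2% and 18.6% in these 5 contrasts. The weights ran from 0.113 for S5 to 7.01 for S1. For AngII against control, weights gave log2 fold changes of 1.33 for Rgs2, 1.29 for Rgs5, 0.51 for Prkca, −0.004 for Gnaq and 0.015 for Rgs4. For AngII + ldCil against AngII they gave −0.82 for Rgs2, −0.71 for Rgs5, 0.08 for Rgs10 and 0.059 for Plcb1, and for the averaged effect 0.43 for Rgs10 and 0.251 for Rgs4. With the interferon list as a covariate, AngII against control turned to 0.008 for Plcb1, −0.097 for Prkca, 0.376 for Rgs3 and −0.019 for Rgs5. Without S1, S3, S5, S9 and S10, Gnaq turned to −0.012, and Rgs4 to −0.151 for AngII + ldCil against AngII. Leaving out single libraries moved AngII against control from −0.004 to 0.142 for Gnaq, −0.204 to 0.006 for Plcb1, −0.215 to 0.075 for Rgs3 and −0.465 to 0.025 for Rgs4. It moved AngII + ldCil against AngII from −0.151 to 0.638 for Rgs4 and −0.792 to 0.029 for Rgs5, and the averaged effect on Rgs4 from −0.35 to 0.007. The sign turned for Gnaq without S8, for Plcb1 without S7, for Rgs3 without S3, S6, S7 or S8, for Rgs4 without S5 (and, averaged, without S16), and for Rgs4 and Rgs5 in AngII + ldCil against AngII without S5, S13 or S14 and without S16. The causes were not tested. Where a group was left with 1 library, it was assumed to vary like the others. The filter at a mean log2 RPKM of 2 left 7 members and gave no value for Rgs4, Rgs10 and Plcb1. No paired analysis was possible because the labels give no replicate numbers shared between groups.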
